A study of Spodoptera frugiperda with 3 samples.

Results

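Of the genes measured in Verson's glands of *Spodoptera frugiperda* (fall armyworm, FAW), 25 protein-coding genes were at least 5 times higher in the prepupa than in the last larval instar, and still at least 5 times higher, at a level within 3-fold of the prepupa, in the pupa. They were 25 of 20644 listed genes and 0.133% of the 18798 protein-coding genes outside the mitochondrial genome. The level used to choose them, called R, is the deposited TPM (reads per exon length, scaled to the same sum in each library) after rRNA genes and genes of the mitochondrial genome were taken out and the rest was scaled to 1000000 again. A gene was included where R was 20 or more in both prepupa and pupa, where R + 1 in each of them was 5 or more times R + 1 in L6, and where R + 1 of prepupa and pupa lay within 3-fold of each other. These values chose the genes, so their levels and ratios are given as a description and no test is made of them.

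The glands came from FAW-SID1, a transgenic strain that carries green fluorescent protein under the hr5-IE1 promoter and the *Caenorhabditis elegans* RNA transport gene SID1 under the IE1 promoter. All libraries share this background, and the number of animals behind each is not given in the sources used here. RNA-seq was done on glands of L6 larvae (the last instar), of prepupae and of pupae. Each stage is represented by 1 library, so no difference between stages can be set against the spread of replicates, and no p-value was computed.

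Caterpillars bear Verson's glands in pairs under the skin, and their secretion is released as the old cuticle is shed. In each gland a large secretory cell is joined by a saccule and a duct. The prepupa is the period at the end of the last instar in which the animal has stopped feeding and prepares the pupal molt under ecdysteroid hormones. Of the gene products named here, tubulin alpha and beta chains pair to build microtubules, the tracks of intracellular transport and the core of the mitotic spindle and of cilia. Clavesins belong to a family of proteins that hold a lipid molecule in a pocket and carry it between membranes. Fatty acid transport proteins bring long-chain fatty acids into the cell and join them to coenzyme A. Aldehyde dehydrogenases oxidise reactive aldehydes to acids.

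The libraries differed in depth. Exon reads numbered from 15208331 to 21366500, but rRNA genes took 87.8% of them in L6, 0.307% in prepupa and 37.1% in pupa. This left 2610753, 15161624 and 11716156 reads for R. The values in L6, against which every ratio was taken, therefore rest on the fewest reads. Taking out rRNA and mitochondrial genes multiplied the deposited TPM by 3.64 in L6, by 1.003 in prepupa and by 1.22 in pupa. Since the glands were sequenced as bulk tissue, more cells of a type and more RNA per cell cannot be told apart in any level given here. The paper reports that the glands shrink after molting, undergo programmed cell death and are gone within a day of pupation. The pupa library thus comes from glands near their end, and the age of the pupae is not given in the sources used here. What this means for the pupa levels was not tested.

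R reached 20 in both prepupa and pupa in 1593 of the 18798 protein-coding genes. Of these, 111 (6.97%) were at least 5 times L6 in prepupa and 119 (7.47%) in pupa, beside 7.34% and 5.21% of all protein-coding genes. Both held for 47 genes (2.95%), and 25 (1.57%) also kept within 3-fold between prepupa and pupa. A level within 3-fold between prepupa and pupa was the common case among the 1593 genes, found in 72.6% of them. The share was 71.8% over all protein-coding genes, but 2523 of those had no read in any library. On the R + 1 scale such genes are within 3-fold by construction. Of the 22 genes that were further apart, 16 were over 3-fold higher in prepupa and 6 were over 3-fold higher in pupa. The median of R over the 25 genes was 7.04 in L6, 70.2 in prepupa and 94.9 in pupa, and together they made up 0.0564%, 0.569% and 0.559% of R. By R, 12 genes were higher in prepupa and 13 in pupa, and 11 lay within 1.5-fold between these stages. This split depended on the scaling, with 15 and 10 by TPM as deposited, 8 and 17 by TMM scaling and 5 and 20 by CPM (reads per library total). In L6, 6 of the 25 genes had an R of 20 or more, 16 were under 10 and 2 were under 1.

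**Figure D1:**
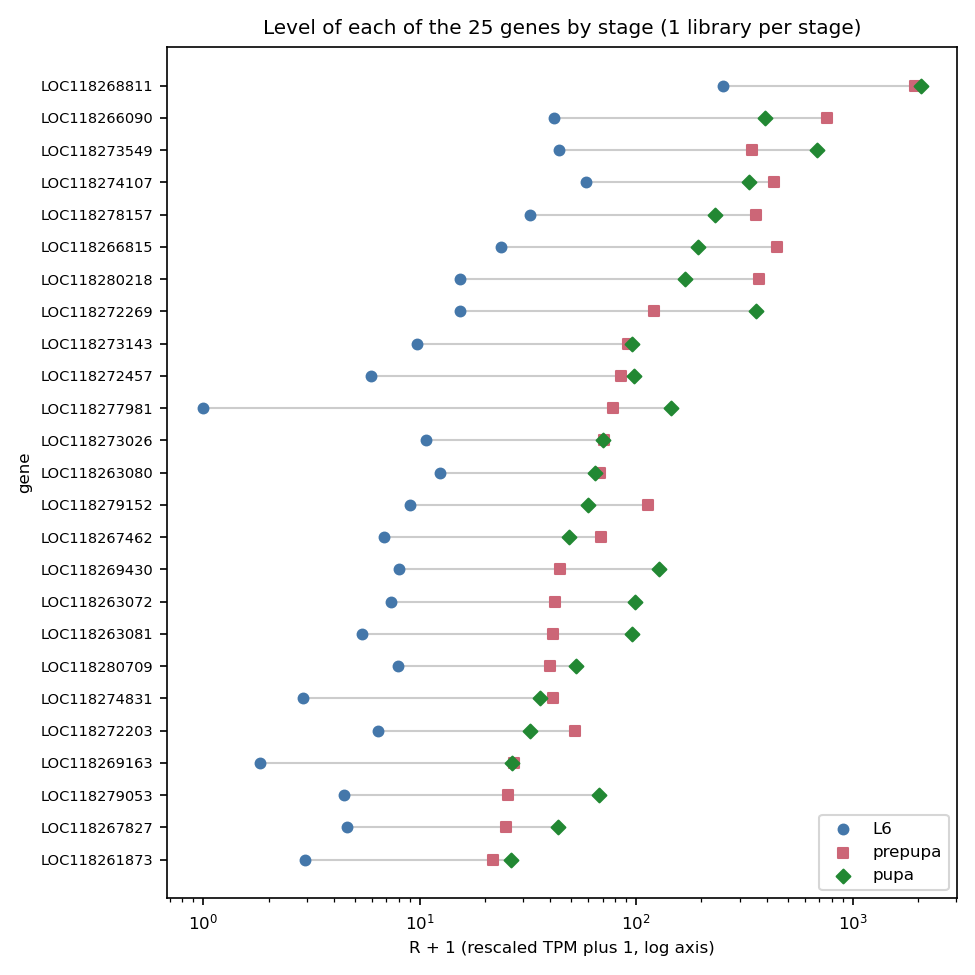
R + 1 (rescaled TPM plus 1, log axis) of each of the 25 genes in L6 (circles), prepupa (squares) and pupa (diamonds), 1 library per stage, ordered from the highest to the lowest of the smaller of the prepupa and pupa values. The prepupa and pupa symbols lie close together and to the right of L6 in every row, and LOC118277981 alone stands at an R of 0 in L6.

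**Figure D2:**
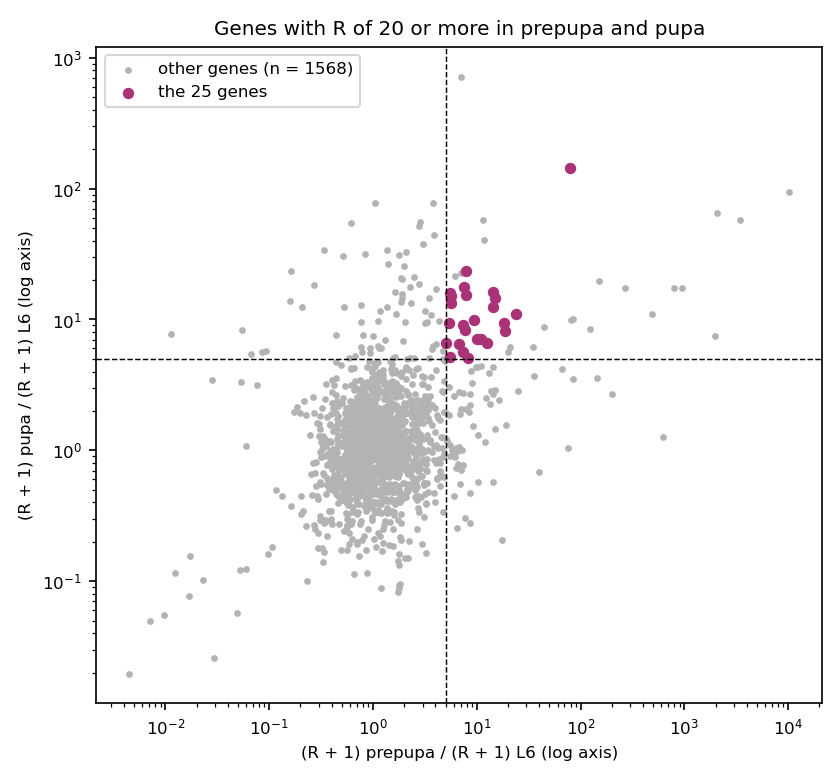
Ratio of R + 1 in prepupa to L6 (horizontal, log axis) and in pupa to L6 (vertical, log axis) for the 1593 genes with R of 20 or more in prepupa and pupa, with the 25 genes in purple and dashed lines at 5. The 25 genes fill the corner near the dashed lines, with LOC118277981 at 78.4 and 144.7 apart from the others, while the grey points beyond both lines are genes over 3-fold apart between prepupa and pupa.

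A protein name was at hand for 11 of the 25 genes, and 4 of these names read only "uncharacterized". The names come from tables of genes selected in the study, which cover 2296 of the 18798 protein-coding genes (12.2%), so the remaining 14 genes are given by their identifiers alone. The 7 informative names were tubulin beta chain for 2 genes, a tubulin alpha-8 chain-like protein, clavesin-1-like for 2 genes, a long-chain fatty acid transport protein and an aldehyde dehydrogenase. All positions below are those of the deposited tables, whose genome build is not given in the sources used here.

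The lipid carriers included the gene with the highest pupa level among those with an informative name. LOC118273549, clavesin-1-like, lies at NC_049727.1:11606370-11609630 on the minus strand with 2 exons. Its R was 43.1 in L6, 343 in prepupa and 682 in pupa, or 7.81 and 15.5 times L6 on the R + 1 scale. It was thus already present in the larva and was highest in the pupa. A second clavesin-1-like gene on the same sequence, LOC118273143 (NC_049727.1:11770609-11791330, minus strand, 7 exons), had an R of 8.69 in L6, 90.4 in prepupa and 94.3 in pupa. Its levels in prepupa and pupa were nearly equal, at 9.43 and 9.83 times L6. Clavesins are known from mammals, where they bind phosphoinositide lipids of endosomes in neurons.

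The other genes named clavesin or alpha-tocopherol transfer protein, the vitamin E carrier of mammals, did not share this course. They were gathered after the values were seen, and of the 8 genes with such a name 3 were at least 5 times L6 in prepupa, 4 in pupa and 2, those described above, in both. The clavesin-2-like genes LOC118271982 and LOC118273241 had R of 69.2 and 75.4 in pupa, but only 14.2 and 10.4 in prepupa against 6.29 and 10.7 in L6. Another clavesin-1-like gene, LOC118265087, was highest in prepupa, with 7.38, 21.1 and 2.85 in L6, prepupa and pupa. An alpha-tocopherol transfer protein-like gene, LOC118274288, ran the other way, with 34.9 in L6, 8.40 in prepupa and 4.42 in pupa.

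LOC118273026, named long-chain fatty acid transport protein 4-like, is a 12-exon gene at NC_049727.1:6103562-6131706 on the plus strand. In mammals the protein of this name both imports long-chain fatty acids and activates them with coenzyme A. Its R was 9.67 in L6, 70.2 in prepupa and 68.9 in pupa, which is 6.68 and 6.55 times L6. The gene next to it, LOC118273025, carries the same protein name and ends 1740 bases before it starts. There R was 3.53 in L6, 47.0 in prepupa and 10.3 in pupa, so the neighbour was 10.6 times L6 in prepupa and 2.48 times in pupa and fell outside the rule. All reads of LOC118273026 mapped uniquely.

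LOC118266815 (NC_049718.1:13633779-13643990, minus strand, 10 exons) was named a putative homolog of aldehyde dehydrogenase family 7 member A1, with a mark of low protein quality. In humans the enzyme of this name acts in the breakdown of lysine. Its R was 22.7 in L6, 444 in prepupa and 192 in pupa, from 106, 8659 and 4517 reads. At 18.8 times L6 in prepupa it had one of the larger ratios of the 25 genes, and at 8.14 times it remained above L6 in the pupa. Of the other 3 genes with the name of a semialdehyde dehydrogenase, a list also gathered after values were seen, LOC118266616 had R of 10.1, 42.9 and 2.21 in L6, prepupa and pupa. The genes LOC118267546 and LOC118267560, both named methylmalonate-semialdehyde dehydrogenase, were highest in L6, at 55.5 and 78.7 against 8.66 and 13.1 in prepupa.

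Tubulins gave 3 of the 25 genes, a beta chain that the tables list at 2 places and an alpha-8 chain. LOC118263072 lies at NC_049713.1:9159739-9161543 and LOC118263081 at NC_049713.1:12345165-12346969, both on the minus strand with 2 exons and the same exon length of 1613 bases. R of LOC118263072 was 6.40 in L6, 41.0 in prepupa and 97.6 in pupa. R of LOC118263081 was 4.43, 40.03 and 94.9. The values of the pair were close in prepupa and pupa and further apart in L6, where they rest on 26 and 18 reads. No read of either gene mapped uniquely, so that reads of these copies could not be told apart, and how the mapping program shared them out is not given in the sources used here.

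LOC118261873, the tubulin alpha-8 chain-like gene (NC_049712.1:3082840-3086633, minus strand, 10 exons), had the lowest prepupa level of the 25 genes. Its R was 1.94 in L6, 20.8 in prepupa and 25.5 in pupa, with 56.8% of its reads mapped uniquely. The other alpha chains were also higher in pupa than in prepupa, by a wider margin. LOC118281144, tubulin alpha-1 chain-like, had R of 11.8, 25.2 and 121.8 in L6, prepupa and pupa, and LOC118261947, a second alpha-8 chain, had 4.05, 20.6 and 48.6. The gamma-2 chain LOC118275941, a protein of the microtubule-organizing center, was highest in L6 at 11.4 and stood at 5.67 and 6.07 later. Over the 6 genes with a tubulin chain name, the sum of R was 40.02 in L6, 153 in prepupa and 394 in pupa.

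The beta tubulin copies belong to a repeated stretch of NC_049713.1. There, 4 neighbouring genes occur again 3185426 bases further on with the same order and the same spans, and none of the 8 genes had a uniquely mapped read. The first copies are listed in RefSeq's gene table for the assembly AGI-APGP_CSIRO_Sfru_2.0, and the second copies are not. Besides the tubulin pair, LOC118263080 of this stretch (NC_049713.1:12349572-12351282) met the rule with R of 11.4 in L6, 67.2 in prepupa and 63.6 in pupa. Its first copy, LOC118263071, had 12.9, 68.2 and 66.6 and missed the rule with ratios of 4.97 and 4.85. The pair thus lies on both sides of the threshold, with 46 and 52 reads in L6. Of the other pairs, LOC118263070 had no read in L6, an R of 1.87 in prepupa and 11.4 in pupa, and LOC118263069 stayed under 2 in each library.

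**Figure D3:**
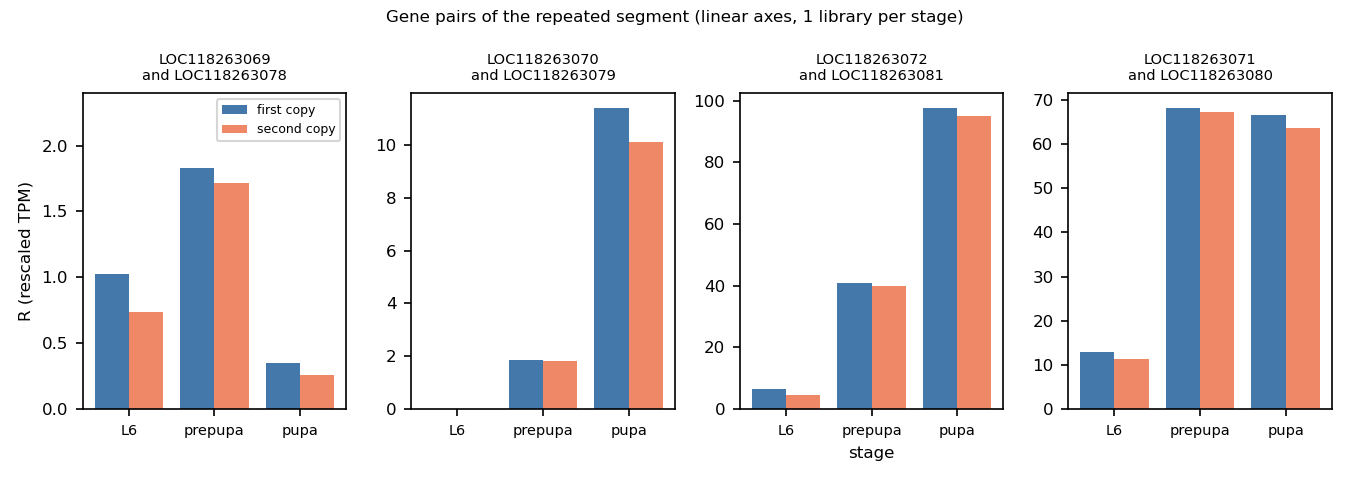
R (rescaled TPM, linear axes, one scale per panel) in L6, prepupa and pupa of the 4 gene pairs of the repeated stretch on NC_049713.1, first copy in blue and second copy in orange, 1 library per stage. The copies of a pair have close values in prepupa and pupa, and the tubulin beta pair LOC118263072 and LOC118263081 reaches 97.6 and 94.9 in pupa.

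The highest gene of all, LOC118268811, has no protein name. It is a gene of 1 exon of 723 bases at NC_049721.1:1421619-1422341 on the plus strand, and overlaps another listed gene, LOC118268807. Its R was 249.8 in L6, 1941 in prepupa and 2070.02 in pupa, or 7.74 and 8.26 times L6. Its prepupa and pupa levels thus lay within 1.07-fold, and it ranked 93rd among the protein-coding genes in prepupa and 106th in pupa. Of its reads only 0.00584% mapped uniquely, and it is not in the RefSeq gene table. LOC118268807 itself had R of 3.44, 16.3 and 2.67.

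LOC118266090, named uncharacterized (NC_049717.1:6995794-6996788, minus strand, 2 exons), was the next highest in prepupa, with R of 40.7 in L6, 764 in prepupa and 391 in pupa. It lies inside LOC118266092, a gene on the other strand, which had 0 in L6, 141.6 in prepupa and 18.5 in pupa. Whether the mapping used strand is not given in the sources used here, so reads of these overlapping genes may not be separable. Beside them lies LOC118266093, also uncharacterized, which reached an R of 103464 in prepupa against 9.15 in L6 and 953 in pupa. Only 18.5% of the reads of LOC118266090 mapped uniquely.

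Among the other genes with R of 100 or more in both prepupa and pupa, which were 8 in all, LOC118274107 (NC_049728.1:6300461-6304749, 3 exons) rested on the most L6 reads, 520. Its R was 57.5 in L6, 430 in prepupa and 330.1 in pupa. LOC118278157 (NC_049711.1:12425861-12426583) also has 1 exon of 723 bases, like the highest gene, but all of its reads mapped uniquely. Its R was 31.3, 355 and 230.02 in L6, prepupa and pupa. The gene with the largest ratio in prepupa among those with reads in L6 was LOC118280218 (NC_049738.1:5686743-5708618), named uncharacterized, with 14.3, 369 and 168, or 24.1 and 11.0 times L6. The largest such ratio in pupa was that of LOC118272269 (NC_049725.1:7468324-7471320), with 14.3, 120.4 and 357, or 7.94 and 23.4 times L6.

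LOC118277981 was the only one of the 25 genes with no exon read in L6, where 1 read fell in its intron. It is a gene of 2 exons at NC_049734.1:6536328-6537187 on the minus strand, and all of its reads mapped uniquely. Prepupa held 626 reads and pupa 1402, for R of 77.4 and 143.7. Against a floor of 3 reads in L6 it was at least 49.9-fold higher in prepupa and at least 92.7-fold higher in pupa. On the deposited TPM, with rRNA kept, the same floor gave at least 181-fold and at least 275-fold, so these bounds depend on the scaling. The gene that follows it at 488 bases, LOC118277985, also had an R of 0 in L6, and its R was 45.8 in prepupa and 1.23 in pupa.

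In 5 genes both ratios were 10 or more. Besides LOC118277981 and LOC118280218, these were LOC118272457 (named uncharacterized), LOC118274831 and LOC118269163. R of LOC118272457 was 4.97 in L6, 84.4 in prepupa and 96.4 in pupa, from 26 reads in L6. Only 38.6% of its reads mapped uniquely, and only 4 of those in L6. The values of LOC118274831 were 1.90, 40.35 and 34.9. LOC118269163 had 0.833, 26.4 and 25.6, from only 4 reads in L6. On the R + 1 scale prepupa and pupa differed by 1.14-fold in LOC118272457, 1.15-fold in LOC118274831 and 1.03-fold in LOC118269163.

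The remaining genes were of intermediate or low level. LOC118279152, LOC118267462 and LOC118272203 had a higher R in prepupa than in pupa, with values of 113 against 58.7, 67.4 against 47.9 and 51.0 against 31.3, and with 8.05, 5.83 and 5.38 in L6. LOC118269430, LOC118279053 and LOC118267827 had the higher R in pupa, with 127 against 43.5, 66.4 against 24.4 and 42.3 against 24.1, and with 7.04, 3.46 and 3.63 in L6. LOC118280709, which had 6.97, 39.1 and 51.8, lies next to LOC118280706, a gene named heat shock protein 83.

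Genes lay close to each threshold on both sides. The gene with the lowest R inside the minimum was the tubulin alpha-8 chain at 20.8, followed by LOC118267827 at 24.1. Just outside were LOC118266995, named peroxisomal acyl-coenzyme A oxidase 3-like, at 19.9 and LOC118262192 at 19.2. For the ratio to L6, LOC118280709 at 5.03 and LOC118272203 at 5.06 lay just inside, and LOC118263071 at 4.85 and LOC118273161, named ubiquitin-conjugating enzyme E2Q-like, at 4.70 just outside. For the limit between prepupa and pupa, LOC118272269 at 2.95-fold and LOC118269430 at 2.88-fold lay inside, and LOC118277401 at 3.10-fold and LOC118271814 at 3.23-fold outside. LOC118277401 was a high gene, with R of 191 in L6, 1425 in prepupa and 4425 in pupa.

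Counting error bore mostly on the L6 values. The 25 genes had from 0 to 520 exon reads in L6, and 11 had under 30. In prepupa they had from 472 to 16251 reads and in pupa from 619 to 19007. With L6 at the ends of its exact 95% Poisson interval, which covers counting error only, both ratios stayed at 5 or more in 16 genes and at least one could be under 5 in 9. The 9 were LOC118263080, LOC118279152, LOC118269430, LOC118263072, LOC118280709, LOC118272203, LOC118279053, LOC118267827 and LOC118261873. The spread between animals or dissections is not known for any of them.

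**Figure D4:**
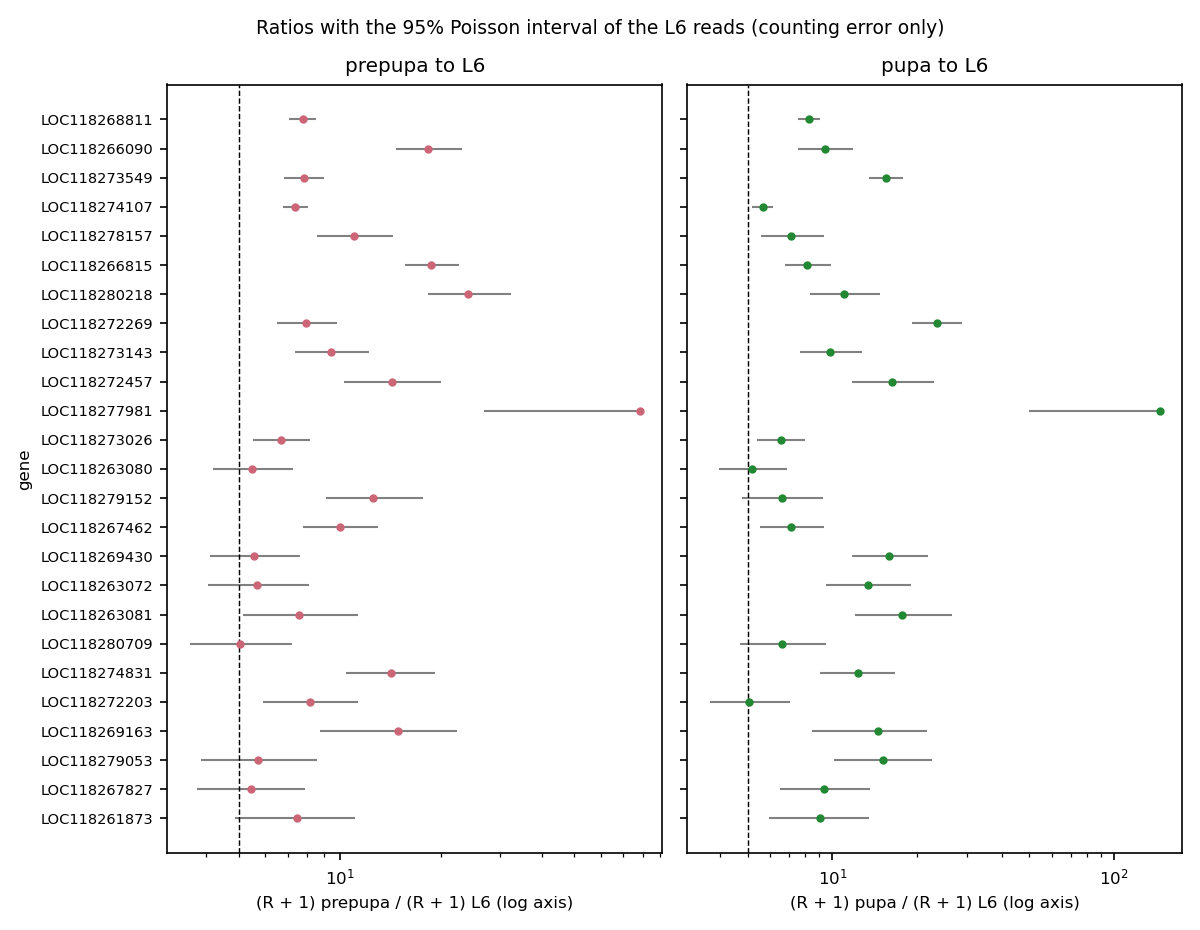
Ratio of R + 1 in prepupa to L6 (left) and in pupa to L6 (right) of the 25 genes on log axes, with lines for the range given by the exact 95% Poisson interval of the L6 reads and a dashed line at 5. The line crosses 5 in at least one panel for 9 genes and stays to the right in both for 16, and for LOC118277981, with 0 exon reads in L6, the point is itself the upper end.

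Shared reads were more frequent among the 25 genes than among the other genes with R of 20 or more in prepupa and pupa. The rule set no limit on shared reads or on RefSeq entries, but R itself counts shared reads. In L6 the other genes were higher, with a median R of 70.0 beside 7.04. Under 50% of the reads of all 3 libraries mapped uniquely in 8 of the 25 genes (32%), beside 163 of the 1568 other genes with R of 20 or more in prepupa and pupa (10.4%). The share was 9.89% in the 839 genes gained at prepupa and over 3-fold lower in pupa, 19.6% in the 516 genes gained at pupa and over 3-fold lower in prepupa, and 15.3% over all protein-coding genes with reads. No entry in the RefSeq gene table was found for 8 of the 25 (32%), which is near the 29.6% of all protein-coding genes, beside 10.8% of the 1568 genes and 19.7% and 20.2% of the genes gained in a single stage. The 8 and the 8 overlapped in 4 genes, LOC118268811, LOC118263080, LOC118263081 and LOC118279053. Both traits held for 61 of the 1568 other genes and for 1236 of the 18798 protein-coding genes. LOC118263080 and LOC118263081 come from the same repeated stretch. These shares are descriptions of 25 genes, 3 of which come from the repeated stretch.

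**Figure D5:**
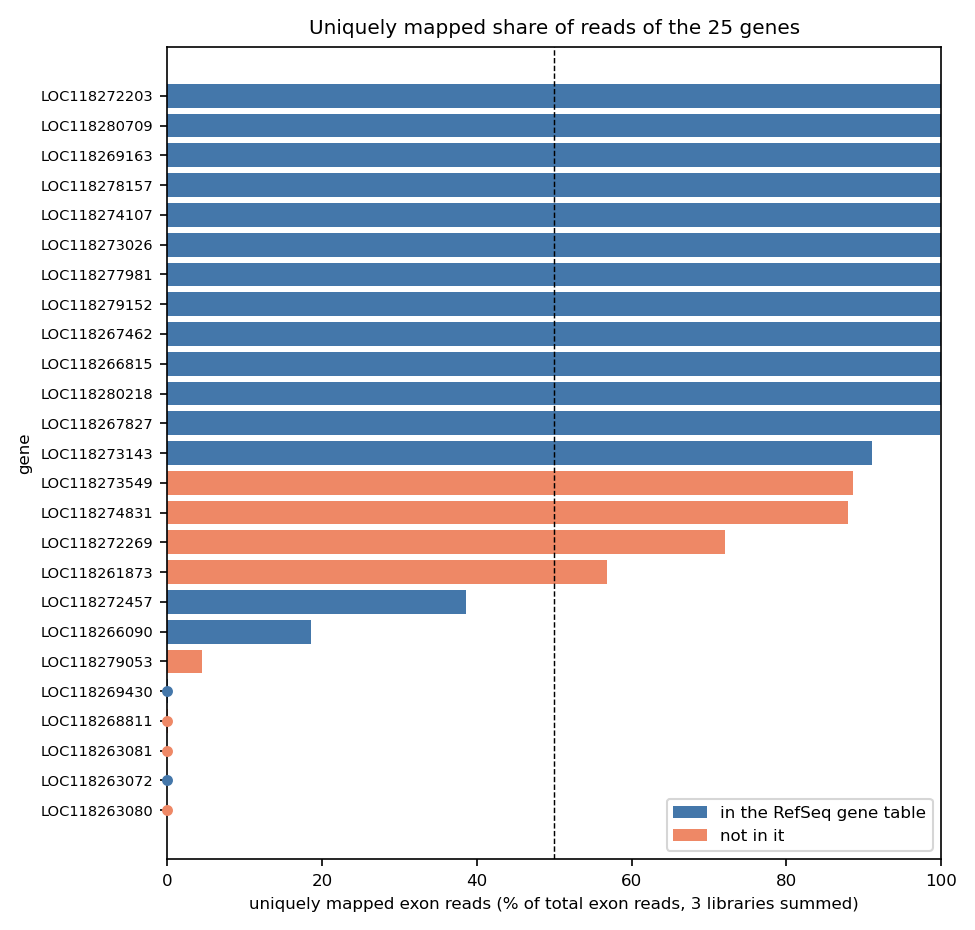
Percentage of the exon reads of each of the 25 genes, summed over 3 libraries, that mapped uniquely, in blue for genes listed in the RefSeq gene table and orange for genes not listed, with a dashed line at 50% and a dot where the bar is near 0. Of the 25 genes 12 are over 99%, 5 lie between 50% and 99%, and 8 are under 50%, of which 4 are not in the RefSeq gene table.

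When only uniquely mapped reads were counted, 18 of the 25 genes still met the rule and 7 did not. The 7 were all 3 tubulin genes, LOC118263080, LOC118268811, LOC118269430 and LOC118279053. Both beta tubulin copies and LOC118263080 had no uniquely mapped read, so that their loss was fixed. LOC118268811 and LOC118269430 had at most 2 such reads in a library. The alpha-8 tubulin LOC118261873 was lost through the minimum R, at 13.1 in prepupa and 17.3 in pupa by these reads, while its ratios to L6 were 5.92 and 7.66. LOC118279053 had ratios of 3.41 and 2.16. Both clavesin genes, the fatty acid transport protein and the aldehyde dehydrogenase remained. Without the genes under 50% unique reads, 17 genes were left, an alternative added after the data were seen.

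In structure the 25 genes had a median exon length of 1851 bases, beside 1251 in the 1568 other genes with R of 20 or more in both stages, 2760 in the genes gained at prepupa, 959 in those gained at pupa and 1820 in all protein-coding genes. A gene of 1 or 2 exons was found in 10 of 25 (40%), beside 22.1%, 10.3%, 35.9% and 21.6% in these sets, and 3 of the 10 belong to the repeated stretch. Intron reads were a median of 1.02% of exon and intron reads, beside 0.770%, 3.23%, 0.678% and 3.40%. LOC118272203 stood apart at 66.5%, with 43, 133 and 3710 intron reads against 28, 1108 and 820 exon reads in L6, prepupa and pupa. It touches LOC118272194, named ornithine aminotransferase, mitochondrial-like, whose R was 7.03, 6.67 and 51.1.

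The 25 genes were spread over 17 of the 90 sequences with protein-coding genes. Only LOC118263080 and LOC118263081 were direct neighbours, 2603 bases apart in the repeated stretch. Of the 48 other genes next to the 25, 1 was at least 5 times L6 in both later stages, LOC118266092. It encloses LOC118266090, and reads of these overlapping genes may not be separable. The share over all protein-coding genes was 0.718%, with which a single gene allows no comparison. In all, 10 of the 25 (40%) overlap another listed gene, beside 22.1% of the 1568 genes and 23.98% of all protein-coding genes.

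Among lists of genes chosen by function, few genes were at least 5 times L6 in both later stages. The share ran from 0% to 14.3% of a list, beside 2.48% over all named genes, and rested on at most 6 genes. Of 82 named genes for cytoskeleton and adhesion, 15 were at least 5 times L6 in prepupa, 15 in pupa and 6 (7.32%) in both. Of these 6, 2 are the beta tubulin copies, whose reads could not be told apart. The 6 were the 3 tubulin genes, the myosin-3-like gene LOC118263540 with R of 0.948, 30.4 and 18.5 in L6, prepupa and pupa, the dynein regulatory complex subunit 3-like gene LOC118272776 and the tubulin glycylase 3A-like gene LOC118273007. The last 3 were under an R of 20 in pupa. Over all named genes the counts were 440 of 2296 in prepupa (19.2%), 309 in pupa (13.5%) and 57 in both (2.48%).

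Of 60 genes for lipid binding and metabolism, 20 were at least 5 times L6 in prepupa, 9 in pupa and 2 in both, the fatty acid transport protein and the lipase 3-like gene LOC118275653. R of the lipase was 0.318 in L6, 3969 in prepupa and 5.67 in pupa, so it did not hold its level. This list did not include the 2 clavesin-1-like genes described above, which were also at least 5 times L6 in both stages. Of 70 detoxification genes, 23 reached 5 times L6 in prepupa, 6 in pupa and 2 in both, the aldehyde dehydrogenase and an ABC transporter of sub-family G, LOC118265168, with 3.45, 194 and 37.8. Of 53 membrane transporters the counts were 19, 5 and 2, and the 2 were trehalose transporters with an R under 8 in pupa. Of 67 peptidases they were 22, 4 and 1 (1.49%), of 14 peptidase inhibitors 6, 2 and 2 (14.3%), and of 24 chaperones 5, 3 and 2 (8.33%). None of these 5 genes was among the 25.

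No gene was at least 5 times L6 in both stages in the lists for the ecdysteroid and juvenile hormone pathway (15 genes, of which 9 reached it in prepupa and 2 in pupa), cuticular proteins (33 genes, 3 and 12), immune genes (19 genes, 3 and 5), transcription factors (51 genes, 14 and 3), cell death and autophagy (20 genes, 0 and 3), the secretory pathway (32 genes, 8 and 0) or ribosome and translation (69 genes, 6 and 0). Over all named genes the share in both stages was 2.48%. At that share, a single list of 15 to 69 genes would hold few such genes or none, so no list is set apart by itself. The lists are put together here because each held none, so no reading is made of them as a group. Only named genes could enter a list, and the names come mainly from genes the study selected for high expression in the glands. Genes without a name here, among them LOC118277981, could therefore enter none of these lists. Whether any of them belongs to one of these classes, such as cuticular proteins or immune genes, was not tested.

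None of the 7 genes with an informative name was on a list of markers of other cell types, and the other 18 could not be checked. Over the lists, the sum of R in L6, prepupa and pupa was 3284, 326 and 12192 for 7 fat body genes, 8617, 369 and 409 for 13 muscle genes, 306, 20.7 and 5.90 for 3 hemocyte genes, and 11746, 815 and 17193 for 30 epidermis genes. For 4 nerve genes it was 193, 325 and 92.7. Of the 30 epidermis genes, 2 had no read in any library. The epidermis list was made of chitin synthase and cuticle protein names. The paper reports cuticular protein genes as highly expressed in the glands too, so this list does not tell epidermis from gland. No trachea gene was named. A single midgut gene had 1.47, 29.5 and 0.182 and a single silk gland gene 0, 0 and 12.1. No list was higher in both prepupa and pupa than in L6, but several differed between stages by far, and their part in the levels of the 25 genes was not tested.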

How the data were processed

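Verson's glands were dissected by the authors from FAW-SID1 at L6, prepupa and pupa, and 1 library per stage was sequenced (BGISEQ-500). Their reads were aligned in CLC Genomics Workbench 9.5.9 with a mismatch cost of 2. The authors deposited 1 gene table per library with raw counts of total and uniquely mapped exon and intron reads, TPM and RPKM, TPM being exon reads per exon length scaled to the library. Not given in the sources used here are the genome build, the use of strand and how reads with several matches were shared out.

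R was computed from deposited TPM without rRNA and mitochondrial genes, scaled to 1000000, and logarithms and ratios used R + 1 (pseudocount 1). The genes and lists were chosen with earlier results of these data known. With 1 library per stage no test was made. Exact 95% Poisson intervals of reads and the floor of 3 reads cover counting error only. Protein names came from tables of the study, held in part, 2020 by gene identifier and 276 by protein accession through RefSeq's gene table for the assembly AGI-APGP_CSIRO_Sfru_2.0, whose positions were left aside. Genes named are the 15 highest, the 5 with the largest smaller ratio, the 2 highest in each list, neighbours, genes sharing a name, those nearest each threshold and the extremes of prepupa to pupa. The other genes named were chosen after their values were seen.

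Alternatives were deposited TPM, deposited RPKM, CPM, uniquely mapped reads, TMM scaling (edgeR 4.0.16), other pseudocounts and other thresholds. Python 3.11.15, pandas 2.3.3, numpy 2.4.6, scipy 1.17.1 and matplotlib 3.10.9 were used.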

Additional observations from a re-analysis of the deposited data

Results flagged for a closer look

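Intron reads lie outside the levels above and exceeded exon reads in some library for 3 of the 25 genes. LOC118272457 had 92 intron reads against 26 exon reads in L6. LOC118277981, with 0 exon reads in L6, had 1 intron read there. LOC118272203 had 43 intron reads against 28 exon reads in L6, and 3710 against 820 in pupa.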

How the results depend on the processing

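The number of genes meeting the rule, 25, was 140 with TPM as deposited, 53 with CPM, 38 with TMM scaling, 14 with a pseudocount of 5, 90 with no minimum R, 59 with a minimum of 10, 14 with a minimum of 50, 48 with a ratio of 3, 5 with a ratio of 10, and 16 with L6 at its upper counting bound, the last added after the data were seen. It was within 1.5 times with RPKM (25), uniquely mapped reads (26, of which 18 were among the 25), a pseudocount of 0.1 (28), limits of 2-fold (18) and 5-fold (32), and, both added later, without genes under 50% unique reads (17) or absent from the RefSeq gene table (17). Of the 25, 11 met the rule under every scaling, unit, read and pseudocount alternative, and 2, LOC118272457 and LOC118277981, under all 14 alternatives chosen at the start. Of these 2, LOC118272457 had only 38.6% uniquely mapped reads. Over the 25 genes the median log2 ratio to L6 was 2.99 in prepupa and 3.23 in pupa. It was 4.68 and 4.45 with TPM as deposited, 2.72 and 2.83 with a pseudocount of 5, and 2.66 in prepupa with CPM. Per-gene changes in the log2 ratio to L6 were taken over protein-coding genes with R of 1 or more in some library. Their median was 1.27 in prepupa and 1.09 in pupa with deposited TPM. It was 0.12 and 0.34 with TMM scaling, and -0.39 and 0.13 with CPM.

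No paired analysis was possible because each stage has 1 library, and for the same reason no replicate could be left out. Depth limits L6 most, where 11 of the 25 genes had under 30 reads. Names cover 12.2% of protein-coding genes, so absence from a list may only mean that a gene has no name here. The planned description of protein and promoter sequences was not run, since no sequence was used here.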

Other observations

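Genes of the axoneme, the microtubule core of cilia and sperm tails, were looked up after the tubulin values were seen. Of 12 such named genes, 2 (16.7%) were at least 5 times L6 in prepupa and 11 (91.7%) in pupa, and 10 were highest in pupa. Over all named genes the shares were 19.2% in prepupa and 13.5% in pupa. The sum of their R was 58.5 in L6, 72.3 in prepupa and 400.3 in pupa. The intraflagellar transport protein 20 homolog LOC118266979 had R of 7.13, 11.3 and 119 in L6, prepupa and pupa. LOC118263870, cilia- and flagella-associated protein 99-like, had 0.602, 2.45 and 42.3. The genes that reached 5 times L6 in prepupa too were LOC118272776 (0.653, 15.2 and 8.12) and LOC118273007 (0.260, 8.995 and 7.38). None of the 12 had R of 20 or more in both prepupa and pupa, so none could be among the 25 genes.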
